A study of Rattus norvegicus with 87 samples.

Results

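Levels of 4 genes of brain blood vessels and the blood-brain barrier were examined among the 17512 genes measured in 81 Heterogeneous Stock (HS) rats. The tissue was the lateral habenula (LHb). The genes were chosen by their identifiers, as known genes of vessels, by a rule that used no measured value, and all 4 were in the table: Flt1 (ENSRNOG00000000940), Slc2a1 (ENSRNOG00000007284), Vwf (ENSRNOG00000019689) and Pecam1 (ENSRNOG00000003784). HS rats are an outbred laboratory population, so that each rat carries its own mixture of alleles, and all of these rats had received neither drugs nor behavioral testing. The groups compared were 41 males and 40 females, and the rat batches named in the labels: batch 2 (11 males, 4 females), batch 3 (10 males, 12 females), batch 4 (12 males, 15 females), batch 5 (1 female) and batch 6 (8 males, 8 females). The labels give neither age nor what a batch stands for. There was no treated group, and each rat gave 1 sample of the LHb, with the tissue of both sides pooled.

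Endothelial cells line every vessel of the brain, and tight junctions between them, together with selective transporters, make up the blood-brain barrier. Flt1 encodes a receptor for vascular endothelial growth factor that binds the ligand tightly and also exists as a soluble form. Slc2a1 encodes the glucose transporter GLUT1, through which glucose crosses the barrier, and is also used by astrocytes and other cells. Vwf encodes von Willebrand factor, which endothelial cells store and release to bind platelets where a vessel is injured. Pecam1 encodes CD31, an adhesion protein at the contacts between endothelial cells that platelets and leukocytes also carry. The LHb lies in the epithalamus and is small, and in bulk tissue such as this, fewer vessel cells and less RNA per cell cannot be told apart.

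Promoter sequences of Flt1 and Slc2a1, the 2 genes matched by symbol in the promoter table of RefSeq (build GRCr8), are shown with the motifs they hold. The 250 bases before the annotated start lie at chr12:12333180-12333429 on the plus strand for Flt1 and at chr5:138002272-138002521 on the plus strand for Slc2a1. For Flt1, the annotated gene reaches further upstream than this window. Vwf and Pecam1 are named only. In both sequences, capitals mark matches to any of 4 motifs searched on both strands: GGAA, the core bound by ETS factors, a family that includes regulators of endothelial genes; TGACGTCA, the cyclic AMP response element; GGGCGG, the GC box; and TATAAA, the TATA box. No match overlapped another.
Flt1: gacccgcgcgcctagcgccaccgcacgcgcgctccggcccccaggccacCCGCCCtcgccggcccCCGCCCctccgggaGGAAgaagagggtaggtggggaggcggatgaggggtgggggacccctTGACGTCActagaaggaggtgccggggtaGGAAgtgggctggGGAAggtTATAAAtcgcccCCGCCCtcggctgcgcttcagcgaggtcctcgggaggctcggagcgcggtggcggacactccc
Slc2a1: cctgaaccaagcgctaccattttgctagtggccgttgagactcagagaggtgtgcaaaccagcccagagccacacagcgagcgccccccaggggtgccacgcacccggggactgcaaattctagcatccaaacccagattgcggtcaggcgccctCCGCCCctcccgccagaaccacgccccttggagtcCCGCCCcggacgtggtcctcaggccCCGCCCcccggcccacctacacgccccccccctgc
The Flt1 sequence held all 4 motifs. GGAA occurred 3 times, beginning 171, 95 and 82 bases before the start, TGACGTCA once at 124 and TATAAA once at 75 bases, and the GC box occurred 3 times on the minus strand. The Slc2a1 sequence held the GC box 3 times on the minus strand, at 95, 60 and 35 bases before the start, and none of the other motifs. Among 33469 rat promoter windows of the same length, 93.2% held GGAA, 30.5% held GGGCGG, 12.9% held TATAAA and 1.59% held TGACGTCA. The cyclic AMP response element was thus the least common of the 4. It is also the longest string, and length alone makes a match rarer. GC content was 73.2% for Flt1 and 68.4% for Slc2a1. These matches describe letters and are not shown to be bound.

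Values are given as normalized counts, the estimated read counts after the authors scaled every library to a common upper quartile, and as log2(normalized count + 1), the deposited scale. Levels of different genes are not compared, since they were not divided by transcript length. The scaled total of a rat lay between 16.2 and 20.2 M counts, and read totals before scaling were not recovered here. Between 296 and 1661 genes were listed at 0 in a rat (median 540), and 9 rats had over 1000. The columns of the table stand in 3 blocks within which the rat identifiers are in alphabetical order. For this order, a pair of samples whose rat labels the authors had exchanged after a genotype mismatch was taken by its original labels. The blocks are called column runs, and the labels do not give their meaning. Batch 2 lay in run 1, batches 4, 5 and 6 lay in run 3, and batch 3 was divided over all of them.

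All 4 genes were detected in every rat. Flt1 ranged from 613 to 1277 normalized counts with a median of 860, or 9.78 ± 0.23 on the log2 scale (SD, n = 81). Slc2a1 ranged from 1996 to 4485 with a median of 2989, or 11.56 ± 0.26. Vwf ranged from 338 to 1076 with a median of 566, or 9.17 ± 0.33. The highest rat thus exceeded the lowest by 2.08-fold for Flt1, 2.25-fold for Slc2a1 and 3.18-fold for Vwf. Pecam1 ranged from 8 to 83 normalized counts with a median of 24, or 4.65 ± 0.58. Its values rest on few reads, and its 10.4-fold range includes counting error. The single rat of batch 5, a female that entered no test, had 1137 counts of Flt1, 2726 of Slc2a1, 582 of Vwf and 39 of Pecam1, all within the range of the other rats.

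To ask whether these genes vary more between rats than others of like level, the residual SD after sex and batch means were removed was set beside that of genes whose mean lay within 0.5 on the log2 scale. Vwf had the highest place among them. Its residual SD was 0.32, above 91.2% of 2667 like-level genes, whose median was 0.19. Flt1 had a residual SD of 0.22, above 69.8% of its like-level genes (median 0.18), and Slc2a1 had 0.21, above 74.9% (median 0.16). For Pecam1 the residual SD of 0.58 was close to the median of like-level genes, 0.60, and lay above 44.4% of them. These are descriptions, with no test.

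**Figure D1:**
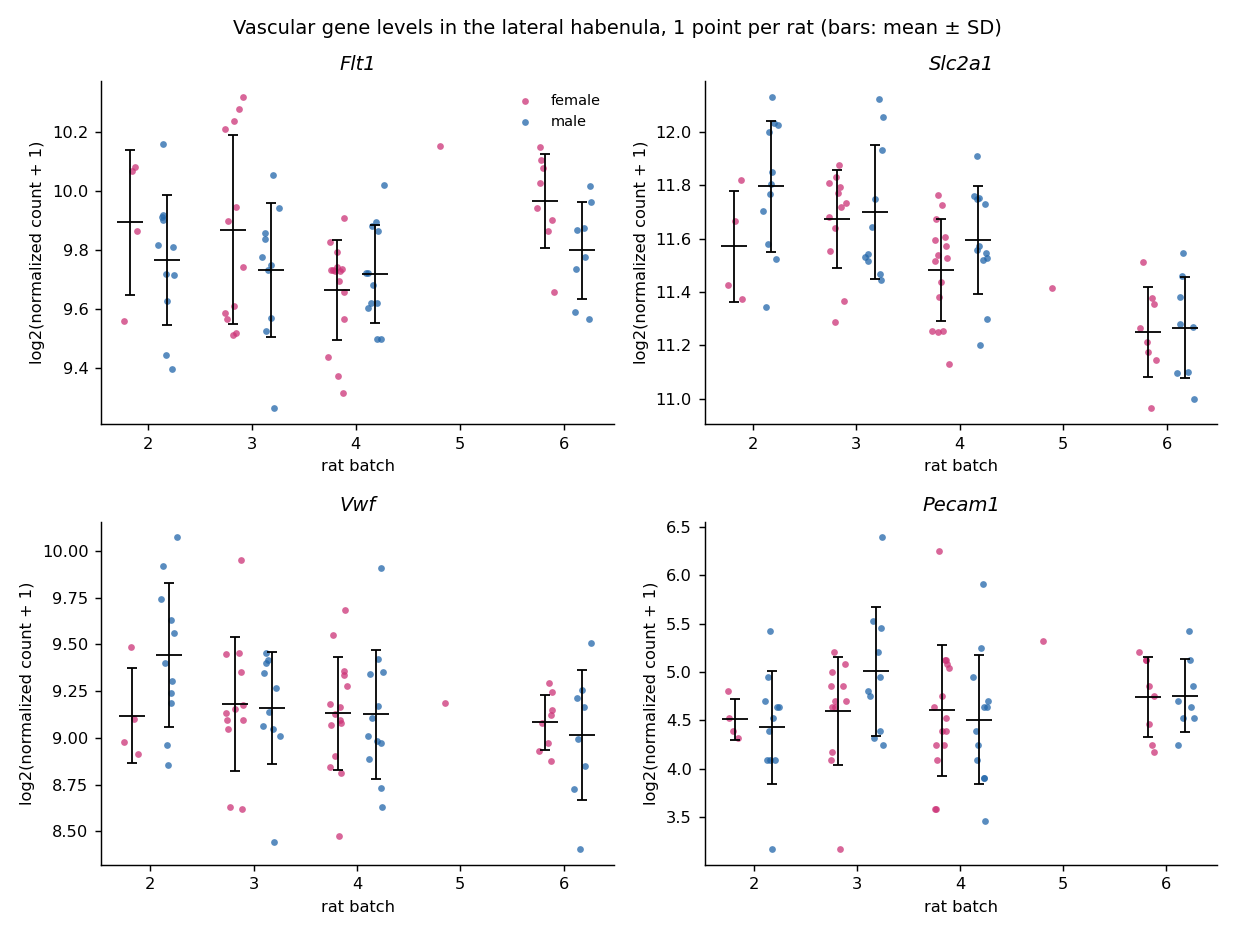
Level of each gene in each rat, as log2(normalized count + 1), by rat batch (x axis) and sex (color), with black bars for mean ± SD where a group has more than 2 rats. Slc2a1 is lowest in batch 6, where all 16 rats lie at or below 2989 counts (11.55), whereas the sexes overlap for all 4 genes.

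The first comparison asked whether males and females differed. They did not differ detectably in any of the 4 genes. Flt1 ranged from 613 to 1142 normalized counts in males (median 860) and from 636 to 1277 in females (median 870.5). Slc2a1 ranged from 2048 to 4485 in males (median 3013) and from 1996 to 3758 in females (median 2939.5). Vwf ranged from 338 to 1076 in males (median 581) and from 355 to 989 in females (median 558), and Pecam1 from 8 to 83 (median 24) and from 8 to 75 (median 24.5). The sexes overlapped over most of their range for each gene. With limma, rat batch as a covariate and Benjamini-Hochberg adjustment over all genes, 0 of the 4 passed, and the adjusted p was 0.998 for each. Of all genes, 23 passed, which is 0.131%, so that a call among 4 genes would be rare. Neither did any of the 4 have an unadjusted p under 0.05.

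In the fit with sex and batch, the sizes of the sex differences can be bounded. For Flt1, the male minus female difference was -0.08 on the log2 scale (SE 0.05, 95% interval -0.17 to 0.02), or 0.949-fold. For Slc2a1 it was 0.08 (SE 0.05, interval -0.0074 to 0.18), or 1.06-fold. The Vwf difference was 0.03 (SE 0.07, interval -0.12 to 0.17), and that of Pecam1 was 0.07 with the widest interval, -0.19 to 0.34. With 20 expression components as covariates, the differences of Flt1 (-0.21), Slc2a1 (-0.03) and Vwf (-0.23) lay outside these intervals. That of Pecam1 (-0.01) lay inside, and none of the 4 passed. Within batches, the Flt1 mean of males was lower in batches 2, 3 and 6, by differences of -0.13, -0.14 and -0.17, and higher by 0.05 in batch 4. The Slc2a1 mean of males was higher in all 4 batches, by 0.22, 0.03, 0.11 and 0.02 (batches 2, 3, 4 and 6). The 8 highest Slc2a1 values all belonged to males, 4 of them in batch 2, where 11 of 15 rats were male. For Vwf, the within-batch differences were 0.32, -0.02, -0.0046 and -0.07, and for Pecam1 they were -0.08, 0.41, -0.10 and 0.01. The sex by batch interaction did not pass for any of the 4 genes (unadjusted p 0.28 for Flt1, 0.50 for Slc2a1, 0.37 for Vwf and 0.45 for Pecam1 by limma's F-test). For the interaction, 0 genes passed over the whole table (0%), and 306 had an unadjusted p under 0.05.

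The second comparison asked whether the genes differed between rat batches. The batch test passed for Slc2a1 and Flt1, and did not pass for Vwf or Pecam1. This is 2 of 4 genes, where 65.3% of all genes passed, so the count by itself does not set the vascular genes apart. The adjusted p of limma's F-test with sex as a covariate was 4.4e-08 for Slc2a1, 0.041 for Flt1, 0.094 for Vwf and 0.300 for Pecam1. Beyond sex, batch accounted for 39% of the total variance of Slc2a1, 11% of that of Flt1, 8.59% of Vwf and 5.29% of Pecam1.

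Slc2a1, the glucose transporter of the barrier, was lowest in batch 6. It ranged from 2601 to 4485 normalized counts in batch 2 (median 3481, n = 15), from 2501 to 4456 in batch 3 (median 3326, n = 22) and from 2243 to 3842 in batch 4 (median 2992, n = 27). In batch 6 it ranged from 1996 to 2989 (median 2464, n = 16). All 16 rats of batch 6 lay below the median of each other batch, although the ranges overlapped, and 10 of them lay below every rat of batch 2. The log2 means were 11.74 ± 0.25, 11.68 ± 0.21, 11.53 ± 0.20 and 11.26 ± 0.17 (SD) in batches 2, 3, 4 and 6. Batches 2 and 3, neighbors in this order, differed by -0.03 (SE 0.07, limma adjusted p 0.844). Batch 4 was below batch 3 by a difference of -0.15 (SE 0.06, adjusted p 0.021), and below batch 2 by one of -0.18 (SE 0.07, adjusted p 0.028). Both calls ended with column run as a covariate, at -0.0089 (limma adjusted p 0.968) and -0.07 (adjusted p 0.792). That fit sets batches 4 and 6 against only the 3 rats of batch 3 in run 3, which had 1404 to 1578 genes at 0. It reaches batch 2, which shares no run with batches 4 and 6, only by way of batch 3.

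Batch 6 was lower again. Its difference was -0.28 from batch 4 (SE 0.06, limma adjusted p 0.0074), or 0.825-fold. From batch 3 it was -0.43 (SE 0.07, adjusted p 6.9e-08) and from batch 2 it was -0.46 (SE 0.07, adjusted p 6.4e-07), or 0.728-fold. The share of all genes that passed was 6.04% between batches 6 and 4, 59.2% between 6 and 3 and 42.4% between 6 and 2, against 54.9% between 4 and 3 and 33.9% between 4 and 2. Of the 8 rats lowest in Slc2a1, 6 were in batch 6 and 2 in batch 4. Males and females of batch 6 were alike in range, at 2048 to 2989 counts (median 2476) and 1996 to 2923 counts (median 2415.5). Adding 20 expression components as covariates ended the batch call of Slc2a1 (adjusted p 0.397) and turned the sign of 4 of its pair differences. With column run as a covariate, the difference of batch 6 was -0.29 from batch 3 (limma adjusted p 0.064) and -0.35 from batch 2 (adjusted p 0.084). These calls, which rest on the same 3 rats of batch 3, ended too. The difference from batch 4 still passed (-0.28, adjusted p 0.0057), but both batches lay wholly in run 3, so that this covariate could hardly change it. The 20 components explained between 53.9% and 71.3% of the variance of the batch labels.

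Flt1, the receptor for vascular endothelial growth factor, followed another order. Its median was 946 normalized counts in batch 6 (756 to 1135), whereas it was 900 for batch 2 (672 to 1142), 867.5 for batch 3 (613 to 1277) and 843 for batch 4 (636 to 1038). The log2 means were 9.88 ± 0.18, 9.80 ± 0.23, 9.81 ± 0.28 and 9.69 ± 0.17, so that batch 6 was highest and batch 4 lowest, with wide overlap. Of the 16 rats of batch 6, 13 lay above the median of batch 4. The difference between these batches was 0.20 (SE 0.07, limma adjusted p 0.059), and no pair of batches passed for Flt1. The pair of batches 6 and 4 did pass under 4 alternatives, namely among genes with a mean of 5 or more (adjusted p 0.048), after the inverse normal transformation (adjusted p 0.033), when column run was a covariate (adjusted p 0.033) and without batch 3 (adjusted p 0.024). Because both batches lay in the same run, the run covariate could hardly change the difference itself. Thus Flt1 had its highest mean in the batch in which Slc2a1 had its lowest. The F-test of Flt1 lost its call without batch 4 (adjusted p 0.602), without batch 6 (adjusted p 0.168), with genes at 0 counted as a covariate (adjusted p 0.099) and with the 20 components (adjusted p 0.863).

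Vwf, the platelet-binding protein, was highest in batch 2, with a median of 632 normalized counts (463 to 1076). Its medians were 565 in batch 3 (347 to 989), 551 in batch 4 (355 to 960) and 548.5 in batch 6 (338 to 727). Of the 16 rats of batch 6, 15 lay below the median of batch 2, and 3 lay below all of its rats. The log2 means were 9.36 ± 0.38, 9.17 ± 0.33, 9.13 ± 0.32 and 9.05 ± 0.26 in batches 2, 3, 4 and 6. The difference of batch 6 from batch 2 was -0.30 (SE 0.11, limma adjusted p 0.027), or 0.811-fold, and no other pair passed. Within batch 2, the 4 females ranged from 481 to 715 counts and the 11 males from 463 to 1076. The sign of the difference between batches 6 and 2 turned with column run as a covariate (0.20, adjusted p 0.560), and batch 2 shared no run with batch 6.

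Pecam1, the endothelial adhesion protein, differed between no pair of batches. Its medians were 22 normalized counts for batch 2 (8 to 42), 26.5 for batch 3 (8 to 83), 22 for batch 4 (10 to 75) and 25.5 for batch 6 (17 to 42). The log2 means were 4.45 ± 0.50, 4.78 ± 0.63, 4.56 ± 0.66 and 4.75 ± 0.38, all within 1 SD of each other. The largest pair difference, batch 3 minus batch 2, was 0.35 (SE 0.20, limma adjusted p 0.263), where 7.44% of all genes passed.

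Because batches and column runs partly coincide, they were parted where the design allowed. Within batch 3, Flt1 was lower in run 2 than in run 1. The 7 rats of run 1 ranged from 856 to 1277 normalized counts (median 1061) and the 12 rats of run 2 from 613 to 1183 (median 774.5). The log2 means were 10.07 ± 0.21 and 9.68 ± 0.24, a difference adjusted for sex of -0.37 (SE 0.10, limma adjusted p 0.018), or 0.772-fold. The largest difference of Flt1 between batches was 0.20 in size, though these were not tested against each other. Flt1 was the only one of the 4 genes to pass here, where 23% of all genes passed. Vwf had the same sign, from 9.40 ± 0.28 to 9.10 ± 0.30 (difference -0.30, SE 0.14, adjusted p 0.108), whereas Slc2a1 differed by 0.09 (SE 0.10, adjusted p 0.529) and Pecam1 by 0.02 (SE 0.26, adjusted p 0.956). The number of genes at 0 had a median of 451 in run 1 and 653.5 in run 2 of batch 3, and its part in these differences was not tested.

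Within run 1, batches 3 and 2 did not differ detectably. Flt1 was 10.07 ± 0.21 in the 7 rats of batch 3 and 9.80 ± 0.23 in the 15 of batch 2, a difference of 0.22 (SE 0.11, limma adjusted p 0.575). Here 0 genes of the table passed (0%), although 1507 had an unadjusted p under 0.05, Flt1 among them at 0.048. The Vwf difference in the same rats was 0.14 (SE 0.16), that of Slc2a1 was -0.02 (SE 0.10) and that of Pecam1 was 0.20 (SE 0.28). Within run 3, the comparison of batches 6 and 4 passed for Flt1 and Slc2a1, in opposite directions, where 10% of all genes passed. Flt1 was higher in batch 6 by 0.20 (SE 0.05, adjusted p 0.021) and Slc2a1 differed by -0.28 (SE 0.06, adjusted p 0.0073). Vwf (-0.08, SE 0.09, adjusted p 0.604) and Pecam1 (0.19, SE 0.18, adjusted p 0.515) did not pass. Since all rats of batches 4 and 6 lay in run 3, this refit used the same rats as the pair difference above and is not a second finding. The lower Slc2a1 of batch 6 than of batch 4 thus lay within the same run by design.

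**Figure D2:**
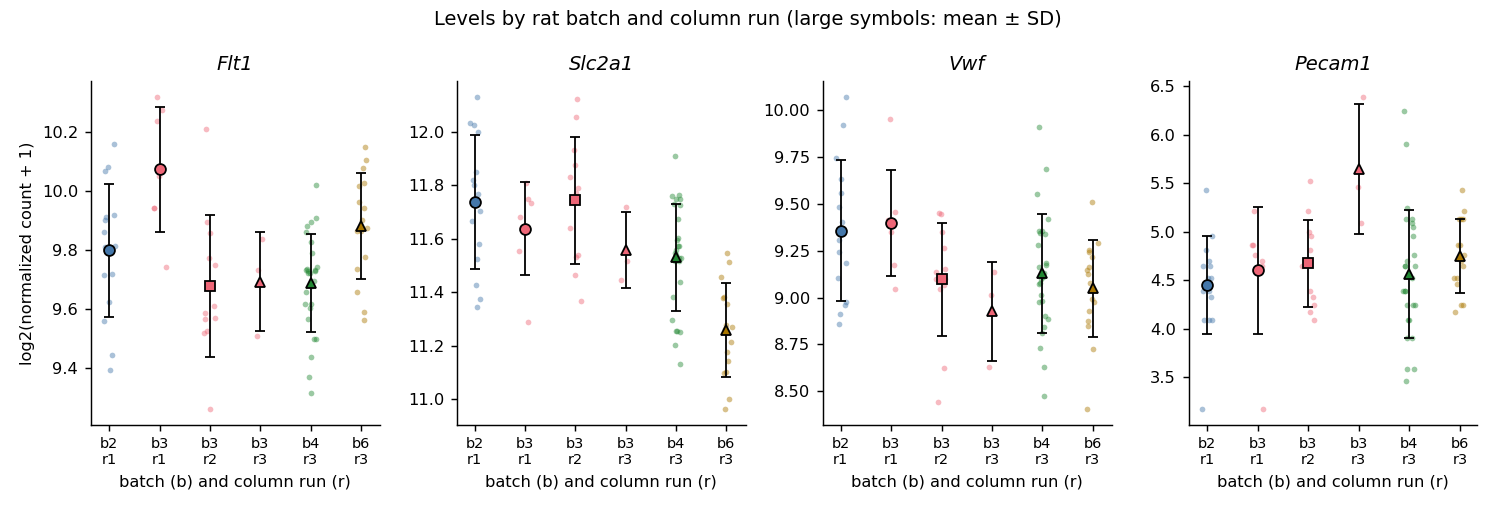
Level of each gene, as log2(normalized count + 1), by rat batch (b) and column run (r), with 1 small point per rat and large symbols for mean ± SD. Within batch 3, Flt1 falls from 10.07 in run 1 to 9.68 in run 2, and the 3 rats of batch 3 in run 3 have the highest Pecam1 mean, 5.65.

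The 3 rats of batch 3 in run 3 had the highest Pecam1 mean of the groups by batch and run. They had 33, 43 and 83 normalized counts, against 8 to 36 (median 26) in run 1 and 16 to 45 (median 24.5) in run 2 of the same batch. The rats with 33 and 43 counts thus lay within the range of the other rats of their batch, and the rat with 83 lay above it. The same 3 rats had between 1404 and 1578 genes at 0. The 9 rats with over 1000 genes at 0, these 3 among them, had a median Pecam1 level of 5.09 on the log2 scale, and the other 72 had 4.64. Apart from these 3, the rats of the 9 had 14, 16, 17, 22, 45 and 75 counts, on both sides of the median of 24 of all rats. With column run as a covariate, which sets these 3 rats against batches 4 and 6, the Pecam1 difference of batch 4 from batch 3 was -1.08 (limma adjusted p 0.016) and that of batch 6 was -0.89 (adjusted p 0.037). Their Flt1 counts were 728, 849 and 914 (median of all rats 860), and their Slc2a1 counts were 2786, 2927 and 3367 (median 2989). Their Vwf counts were 395, 515 and 562, all below the median of 566. With the number of genes at 0 added to the fit of sex and batch, the residual SD of Pecam1 was 0.56, and its difference between batches 3 and 2 was 0.14 (adjusted p 0.801).

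The third question was whether the 4 genes went up and down together between rats. Deviations of each rat from its sex and batch were correlated over 80 rats, and the points share the libraries and their scaling. Vwf varied with Flt1 (r = 0.38, Spearman's rho = 0.38) and with Slc2a1 (r = 0.37, rho = 0.37). Flt1 and Slc2a1 did not vary together (r = 0.03, rho = 0.06). Pecam1 had weak correlations with all of the others, at -0.12 with Flt1, -0.14 with Slc2a1 and 0.03 with Vwf. When every other gene was regressed on 1 of the 4 with limma, Vwf passed for Flt1 (adjusted p 0.0025) and for Slc2a1 (adjusted p 0.019), and with Vwf as the regressor, Flt1 (adjusted p 0.030) and Slc2a1 (adjusted p 0.037) passed. Both calls with Vwf as the regressor passed in 6 of 12 alternatives each. With 20 expression components, r was 0.27 for Flt1 and Vwf and 0.22 for Slc2a1 and Vwf, and neither pair passed in either direction (adjusted p 0.336 with Flt1, 0.602 with Slc2a1, and 0.619 and 0.701 with Vwf as the regressor). The remaining 4 pairs did not pass in either direction. The slope of log2 Vwf was 0.57 per log2 unit of Flt1, and 0.57 per log2 unit of Slc2a1.

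**Figure D3:**
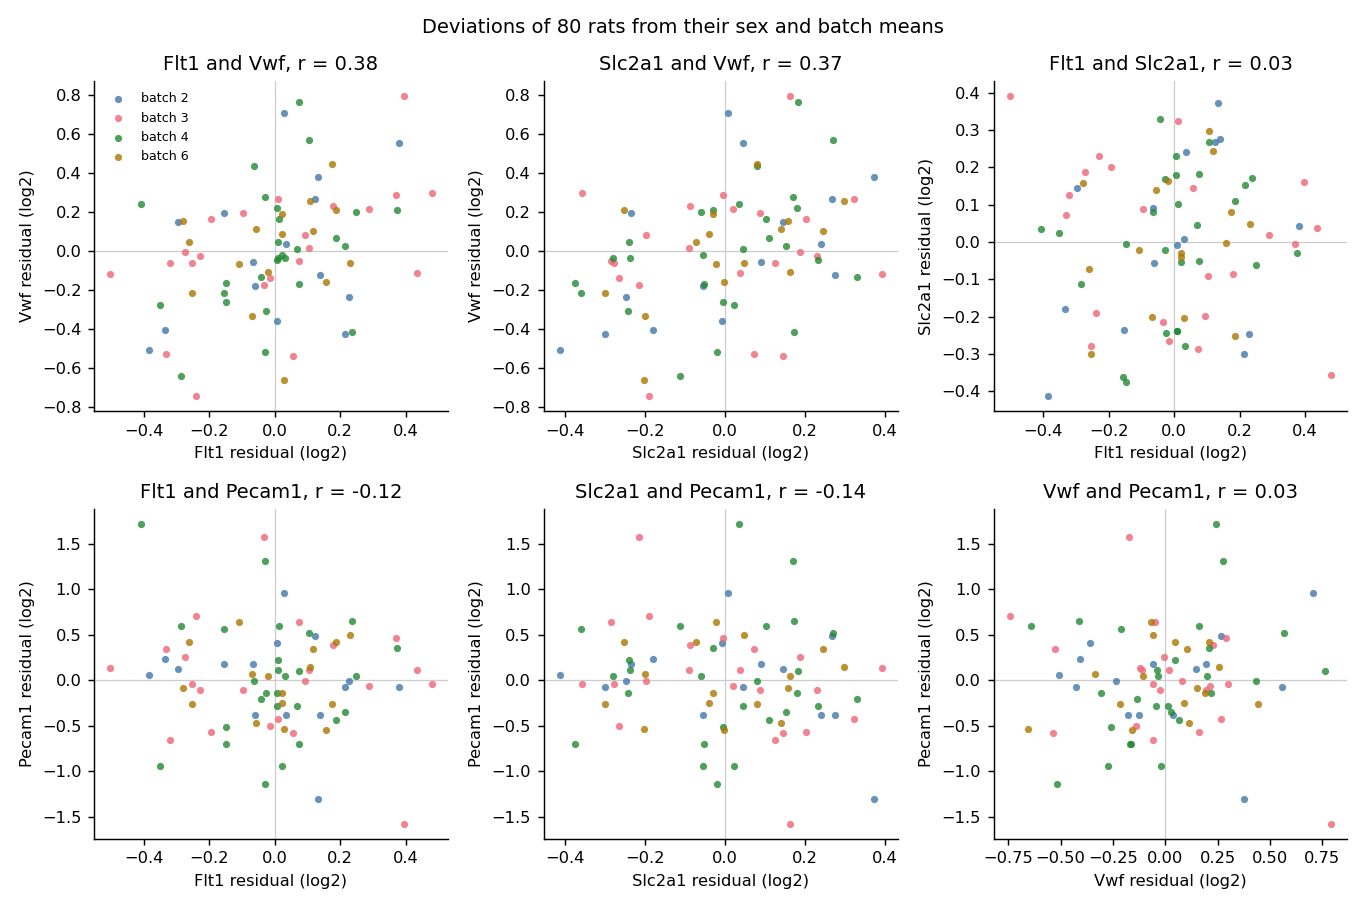
Deviation of each of 80 rats from its sex and batch mean (log2 scale) for the 6 pairs of genes, with 1 point per rat colored by rat batch. The clouds rise for Flt1 and Vwf (r = 0.38) and for Slc2a1 and Vwf (r = 0.37), and have no slope to see for Flt1 and Slc2a1 (r = 0.03).

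Within batches, Flt1 and Vwf had r of 0.45, 0.52, 0.33 and 0.16 in batches 2, 3, 4 and 6 (n = 15, 22, 27 and 16). For Slc2a1 and Vwf, r was 0.49, 0.12, 0.39 and 0.49 in the same order. Both pairs were thus positive in all 4 batches. They were also positive in each column run, from 0.29 to 0.38 for Flt1 and Vwf and from 0.26 to 0.46 for Slc2a1 and Vwf. The batch 3 value of Flt1 and Vwf spans its column runs, and r was 0.29 in run 2, which held batch 3 alone. With column run as a covariate, r of this pair was 0.31. Its limma adjusted p was 0.027 with Flt1 and 0.148 with Vwf as the regressor. For Flt1 and Slc2a1, r was -0.36 in batch 3, whereas it was 0.37, 0.22 and 0.15 in batches 2, 4 and 6. The pooled value thus joins batch values of opposite sign, which were not tested against each other. Vwf and Pecam1 had -0.44 in batch 3, against 0.13, 0.32 and 0.21 in batches 2, 4 and 6. Without the 2 rats farthest from the median of Flt1, r was 0.39 for Flt1 and Vwf, and without the 2 farthest for Slc2a1, it was 0.36 for Slc2a1 and Vwf. Without the 9 rats with over 1000 genes at 0, these were 0.39 and 0.36 over 71 rats. The calls depended on the batches fitted. With Flt1 as the regressor, Vwf did not pass without batch 3 (r = 0.30, limma adjusted p 0.129). With Slc2a1 as the regressor, it did not pass without batch 2 (r = 0.31, adjusted p 0.097), without batch 4 (r = 0.36, adjusted p 0.089) or without batch 6 (r = 0.34, adjusted p 0.079).

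The rats at the ends of the ranges show how the genes combined in single libraries, as a description. Female rat 5 of batch 3 had 1205 counts of Flt1, the third highest, and 989 of Vwf, the second highest, with 8 of Pecam1, which is the lowest value and is shared with male rat 41 of batch 2. That male had the highest Slc2a1, 4485 counts. Male rat 39 of batch 3 had the lowest Flt1, 613 counts, and the second highest Slc2a1, 4456 counts. Female rat 9 of batch 3 had the highest Flt1, 1277 counts, and the lowest Slc2a1 of its batch, 2501 counts. Male rat 30 of batch 6 had the lowest Vwf, 338 counts, and the third lowest Slc2a1, 2190 counts. Among the 8 rats highest and the 8 lowest in deviation from sex and batch, Flt1 and Vwf shared 2 and 2 rats, Slc2a1 and Vwf shared 2 and 2, and Flt1 and Slc2a1 shared 0 and 1. In 1 rat, Flt1 was among the 8 highest and Slc2a1 among the 8 lowest.

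The correlations between the vascular genes have to be read beside those of all other genes. With Vwf, 556 of 17511 other genes passed, or 3.18%, of which 349 had a positive and 207 a negative sign. Flt1 ranked 252nd and Slc2a1 309th by r with Vwf, so that 1.43% and 1.76% of genes had a higher r, whereas 45.2% of genes had a higher r than Pecam1. With Slc2a1, 1999 genes passed, or 11.4%, of which 872 were positive. For Slc2a1, 2.55% of genes had a higher r than Vwf, and 42.5% had a higher r than Flt1. With Flt1, 7164 genes passed, or 40.9%, split into 3771 positive and 3393 negative ones. For Flt1, 11.3% of genes had a higher r than Vwf, and 49.3% had a higher r than Slc2a1. A call with Flt1 was therefore common among genes of any kind. With Pecam1, 800 genes passed, or 4.57%, and the other vascular genes were not among them. These counts also depended on the batches fitted. Without batch 3, the count for Flt1 was 1193 and that for Slc2a1 392. Without batch 4, the count for Vwf was 41, and that for Pecam1 was 0, with 3139 genes at an unadjusted p under 0.05.

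**Figure D4:**
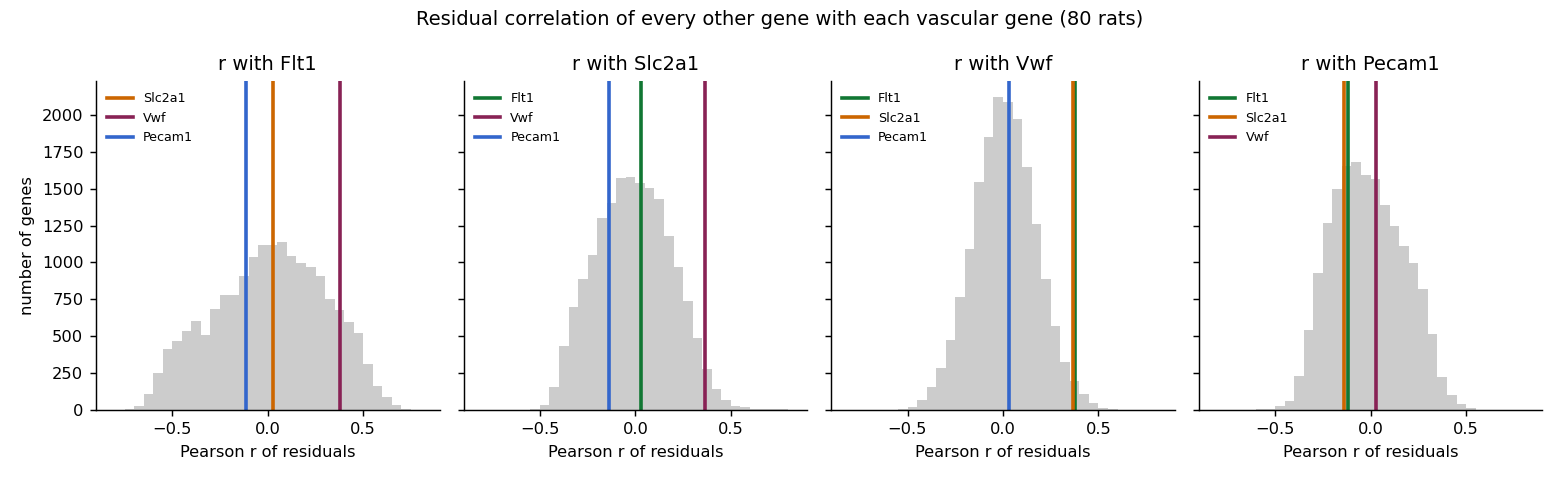
Number of genes (y axis) by Pearson r of their residuals with each of the 4 vascular genes over 80 rats (x axis, bins of 0.05), with colored lines at the r of the other 3. For Vwf, the lines of Flt1 (0.38) and Slc2a1 (0.37) lie in the right tail, and for Flt1 the distribution is the widest, with 5% of genes below -0.49 and 5% above 0.47.

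The genes were also set beside measures of the whole library. The first principal component of the residuals of all genes, which held 7.62% of their variance, had r = 0.58 with Flt1, -0.27 with Slc2a1, 0.07 with Vwf and -0.36 with Pecam1. The log2 number of genes at 0 had r = -0.25 with Flt1, -0.03 with Slc2a1, -0.25 with Vwf and 0.30 with Pecam1. The scaled total had r = 0.33 with Slc2a1, and -0.14, 0.01 and 0.15 with Flt1, Vwf and Pecam1. With the number of genes at 0 added as a covariate, r was 0.34 for Flt1 and Vwf and 0.37 for Slc2a1 and Vwf. Vwf then still passed for Flt1 (limma adjusted p 0.0099) and for Slc2a1 (adjusted p 0.016), but with Vwf as the regressor neither Flt1 (adjusted p 0.104) nor Slc2a1 (adjusted p 0.056) passed.

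The genes most like each of the 4 were taken among the 13357 genes whose mean level was 5 or more on the log2 scale. The files do not pair identifiers with names. For Slc2a1, the 5 nearest genes had r between 0.71 and 0.78, led by ENSRNOG00000001250. That gene had r = -0.08 with Flt1, 0.24 with Vwf and -0.04 with Pecam1. For Flt1, the 5 nearest had r between 0.70 and 0.74, led by ENSRNOG00000002248, which had r = -0.04 with Slc2a1 and 0.26 with Vwf. The most negative gene for Flt1, ENSRNOG00000006751, had r = -0.72, and -0.39 with Vwf. For Vwf, the nearest 5 had r between 0.57 and 0.61, and for Pecam1 between 0.53 and 0.55. The most negative gene for Pecam1, ENSRNOG00000008376, had r = -0.59. Whether further markers of endothelial cells, pericytes, blood or glia vary with these genes was not analysed here, because their identifiers could not be paired with names, and for the same reason the LHb label was not checked against its markers.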

How the data were processed

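Polyadenylated RNA of the LHb had been sequenced. According to the study's methods and the submitters' processing notes, the authors trimmed reads with cutadapt, used RSEM and the Ensembl rat transcriptome (Rnor_6.0) to estimate counts for each gene, scaled them to their upper quartile with DESeq2 and removed poor libraries and rarely read genes. No versions were given. The deposited values are log2 values of the authors' scaled estimated counts after a pseudocount of 1, and the normalized counts given here were obtained by reversing this step. A log2 difference understates the change of a gene with few counts, such as Pecam1. Read totals were not recovered, so the depth behind each value is known only after scaling. Strandedness of the counting is not given in the sources used here.

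Of 87 labelled samples, 6 had been removed by the authors, and 0 columns of the table lacked a sample. Rats were grouped by the sex and rat batch in the labels, and replicate numbers only name the rats. Sex (adjusted for batch), batch (adjusted for sex), their interaction, batches within column runs, and every other gene against each member (with sex and batch) were fitted over all genes with limma 3.58.1 (R 4.3.3; lmFit followed by eBayes with trend), two-sided or by F-test. The 80 rats of batches 2, 3, 4 and 6 were used, with p-values adjusted over all genes by Benjamini-Hochberg and called under 0.05. Each r is a Pearson correlation of residuals after sex and batch. The scripts were tested on simulated data. Promoters were matched by symbol (2 of 4), and figures were drawn with matplotlib 3.10.9.

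The members, lists and tests were chosen with earlier results of these data known. The rule for named genes was the 4 members and the 5 genes nearest to each whose mean was 5 or more, of which 2 positive and 2 negative identifiers are printed, the most negative one being added after its values were seen. Lists of cell type markers could not be paired with identifiers and were not analysed here. Symbols were used only for the 4 members, as given with their identifiers. Alternatives were a pseudocount of 8, rescaling by median-of-ratios, a minimum mean of 5, no intensity trend, a rank-based inverse normal transformation, 20 expression components, the number of genes at 0 or column run as covariates, and leaving out each batch.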

Additional observations from a re-analysis of the deposited data

Results flagged for a closer look

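Male rat 10 of batch 3 had a Vwf level of 8.44 on the log2 scale (347 normalized counts), far below the other males of its batch by Dixon's test of the gap to the nearest rat, with 1491 genes at 0 in the same library. Of 16 sets of rats tested in this way (each gene in each sex and batch with 4 to 10 rats), 1 was picked out, where chance alone gives about 0.8.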

How the results depend on the processing

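No paired analysis was possible, since each sample of the LHb came from a different rat. None of the 4 sex differences passed under any alternative run. The cause of the changes below was not tested.

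With 20 expression components, calls over all genes were 7 for sex and 20 for batch. The range of batch means was 0.089 for Flt1 and 0.28 for Slc2a1, neither past the threshold, and signs turned for Slc2a1 between batches 4 and 2 (0.26), 6 and 2 (0.087), 4 and 3 (0.28) and 6 and 3 (0.11) and for Vwf between 6 and 2 (0.16). The association counts were 182 for Flt1, 136 for Slc2a1, 0 for Vwf (1360 at an unadjusted limma p under 0.05) and 0 for Pecam1 (1405). The correlations were 0.27 for Flt1 and Vwf and 0.22 for Slc2a1 and Vwf, neither past the threshold, and the residual SDs were 0.15 for Flt1, 0.18 for Slc2a1, 0.25 for Vwf and 0.46 for Pecam1. With column run, 6180 genes passed for batch, the Vwf difference between batches 6 and 2 was 0.20, the residual SD of Flt1 was 0.20, the association counts were 1196 for Slc2a1 and 237 for Vwf, and r of Flt1 with Vwf as the regressor was 0.31, not past the threshold. The 4 Slc2a1 pair differences with batches 2 or 3 that had passed no longer did so, and Flt1 differed between batches 6 and 2 by 0.43 (limma adjusted p 0.024). In this fit, batches 4 and 6 were set against batch 3 through its 3 rats of run 3 alone, and against batch 2 by way of batch 3.

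With the number of genes at 0, the range of batch means of Flt1 was 0.16 and no longer passed, the association counts were 210 for Vwf and 180 for Pecam1, and with Vwf as the regressor neither Flt1 (r = 0.34) nor Slc2a1 (r = 0.37) passed. A pseudocount of 8 gave 1 interaction call, a residual SD of 0.45 for Pecam1 and 1309 associations with it. The inverse normal transformation gave 1254 associations with Slc2a1 and 130 with Pecam1, and Slc2a1 no longer passed with Vwf as the regressor (r = 0.38).

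Without batch 2, the association counts were 1162 for Slc2a1, 902 for Vwf and 363 for Pecam1, and Slc2a1 and Vwf (r = 0.31) passed in neither direction. Without batch 3, they were 1193 for Flt1, 392 for Slc2a1, 270 for Vwf and 1279 for Pecam1, the residual SD of Flt1 was 0.19, and Flt1 and Vwf (r = 0.30) passed in neither direction. Without batch 4, the counts were 587 for Slc2a1, 41 for Vwf and 0 for Pecam1 (3139 at an unadjusted limma p under 0.05), the residual SD of Pecam1 was 0.53 and the range of batch means of Flt1 was 0.083, no longer past the threshold. Without batch 6, that range was 0.13, also not past it, and the counts were 587 for Slc2a1, 196 for Vwf and 266 for Pecam1. Without batch 4 and without batch 6, Slc2a1 and Vwf passed in neither direction (r = 0.36 and 0.34), and Flt1 did not pass with Vwf as the regressor (r = 0.43 and 0.40). Rescaling by median-of-ratios and fitting without an intensity trend changed no call of the 4 genes. The low counts of Pecam1 limit its precision.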
